A study of Caenorhabditis elegans with 3 samples.

Results

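The polyA RNA of Caenorhabditis elegans given dcr-1 RNAi was compared directly with that of animals given drsh-1 RNAi, gene by gene. A gene was compared where both deposited tables list it and give it the same mock value, within 1e-09 FPKM, since a gene whose mock value differs may have been measured over different transcripts. That held for 9043 genes of the 10168 listed in either table. The tables share 9459 genes, and 416 of these were left out because their mock values differ. Inside the rule the mock values were identical (largest gap 0.0 FPKM), and the smallest gap outside it was 0.713 FPKM, so no gene lay near the limit.

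Each group was 1 library of young adult animals at 2.5 days. The dcr-1 RNAi group was fed bacteria against dcr-1, the drsh-1 RNAi group was fed bacteria against drsh-1, and the mock group served as the control for both. All 3 groups, mock included, were of a fem-1 strain, whose animals are sterile, and the labels give sterility on loss of dcr-1 as the reason for this choice. The sources used here give no allele, temperature or number of animals per library. With 1 library a group, the RNAi target cannot be told apart from differences between cultures or preparations, and no difference below has a replicate, a test or an error between samples.

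Dicer and Drosha are both RNase III enzymes of small RNA production. Drosha, with its partner Pasha (pash-1), cuts primary microRNA transcripts in the nucleus, and Dicer then cuts the hairpin precursors in the cytoplasm into mature microRNAs. In C. elegans Dicer also cuts long double-stranded RNA into the small interfering RNAs of RNAi, a role that Drosha does not have. A library given dcr-1 RNAi set against a library given drsh-1 RNAi shows where their polyA RNA differs. A change in either library alone can give the same ratio, so mock values are given beside it. How far either enzyme was lowered was not measured. RNAi by feeding itself depends on Dicer.

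Values are FPKM as the authors deposited them, that is, fragments scaled by the length of the transcript and by the number mapped. The ratio used throughout is log2 of (FPKM in dcr-1 RNAi + 1) over (FPKM in drsh-1 RNAi + 1), so a positive value means higher in dcr-1 RNAi. A gene is counted as higher or lower where this ratio reaches 2-fold, which describes size only. Because of the added 1 FPKM, ratios of low genes come out too small. Read counts and library sizes are unknown here, so no counting interval can be given. Genes enter a table only above 2 FPKM in both of its libraries, and a gene close to absent in a library is missing from the comparison.

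The targeted genes were read first. Transcripts of dcr-1 were at 23.8 FPKM in dcr-1 RNAi, 33.2 FPKM in drsh-1 RNAi and 36.8 FPKM in mock, a log2 ratio of -0.46 between the RNAi libraries. It was lowest in the library that bears its name, but the 1.38-fold difference between the RNAi libraries is within the 1.5-fold that held 73.8% of compared genes. Transcripts of drsh-1 were at 33.2 FPKM in dcr-1 RNAi against 20.9 FPKM in drsh-1 RNAi, also lowest in its own library, but its mock value was 26.2 FPKM in the dcr-1 table and 31.999 FPKM in the drsh-1 table, so drsh-1 is not among the compared genes. The Drosha partner pash-1 was at 33.9 FPKM in dcr-1 RNAi, 44.4 FPKM in drsh-1 RNAi and 36.6 FPKM in mock.

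Markers of stage and tissue were checked next. The larval markers col-10, dpy-7 and col-17 were in neither table. The 3 adult markers went opposite ways, with ratios of 1.95 in col-19, 1.35 in col-124 and -3.08 in vit-2. Of 5 hypodermis markers only col-19 was compared, and dpy-7, rol-6, bli-1 and col-10 were in neither table. Oocyte markers summed to 1790.3 FPKM in dcr-1 RNAi, 1846 FPKM in drsh-1 RNAi and 1648 FPKM in mock over 5 genes, and germ line markers to 516, 461 and 482 FPKM over 6 genes in the same order. Of 10 sperm markers, 1 was compared (spe-15, at 7.96 FPKM in dcr-1 RNAi, 4.72 FPKM in drsh-1 RNAi and 4.40 FPKM in mock) and 8 were in neither table. A wider sperm gene list had 28 compared genes of 31 in either table. Its median level was 27.8 FPKM in dcr-1 RNAi, 28.8 FPKM in drsh-1 RNAi and 30.2 FPKM in mock, and its median ratio 0.22. The 6 intestinal markers summed to 346 FPKM in dcr-1 RNAi, 1953 FPKM in drsh-1 RNAi and 2301 FPKM in mock, and 5 of the 6 (vit-2, vit-6, ges-1, cpr-1 and asp-1) were at least 2-fold lower in dcr-1 than in drsh-1 RNAi. The gut transcription factor elt-2, the sixth, was at 5.49 FPKM in dcr-1 RNAi, 6.89 FPKM in drsh-1 RNAi and 5.81 FPKM in mock. Without the yolk genes vit-2 and vit-6, the other 4 markers summed to 198 FPKM in dcr-1 RNAi, 632.3 FPKM in drsh-1 RNAi and 1074 FPKM in mock. Gut genes did not all lie on that side. Of 30 genes of the intestinal protease list, which holds cpr-1 and asp-1, 4 were at least 2-fold higher in dcr-1 RNAi and 3 lower, with a median of -0.01, where 4.29% of all compared genes were higher and 5.78% lower. F28A12.4, annotated as the aspartyl protease gene asp-13, was at 144.7 FPKM in dcr-1 RNAi, 61.4 FPKM in drsh-1 RNAi and 39.6 FPKM in mock (1.22). The yolk genes vit-1, vit-3 and vit-4, also of the gut, were higher in dcr-1 RNAi. In RNA from whole animals, fewer cells of a type and less RNA per cell cannot be told apart.

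Most genes lay close together in both RNAi libraries. The ratio had a median of 0.06 and quartiles of -0.28 and 0.35, and 6675 genes (73.8%) were within 1.5-fold. At least 2-fold higher in dcr-1 RNAi were 388 of the 9043 genes (4.29%), and at least 2-fold lower were 523 (5.78%). Past 4-fold there were 53 higher and 73 lower genes, and past 8-fold 12 and 12. The mock value lay nearer to the drsh-1 than to the dcr-1 value, on the scale of log2 of (FPKM + 1), for 337 of the 388 higher genes (86.9%) and 434 of the 523 lower genes (83.0%), against 71.9% of all compared genes. By the closest pair among the 3 values on that scale, dcr-1 RNAi was the library apart in 324 of the higher genes (83.5%) and 430 of the lower genes (82.2%), against 57.6% of all compared genes. It was drsh-1 RNAi in 49 and 87 of them, and mock in 15 and 6 (3.87% and 1.15%, against 22.3% of all compared genes). Genes picked for a gap between the RNAi libraries seldom leave mock apart, by construction. That raises the share left to the RNAi libraries together, so the 57.6% of all compared genes is not a like base.

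The scatter of the compared genes shows this centre and the lists that depart from it. FPKM summed over all compared genes was 791603 in dcr-1 RNAi, 679995 in drsh-1 RNAi and 645247 in mock, while the medians were 28.3, 27.9 and 28.03 FPKM. Ribosomal protein genes made up 20.2% of the sum in dcr-1 RNAi, 16.05% in drsh-1 RNAi and 16.51% in mock. Cuticle collagens made up 4.97%, 1.81% and 1.18% in the same order.

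The single genes with the highest ratios were of mixed function. cyn-4, a cyclophilin of the peptidyl-prolyl isomerase family, had the highest ratio of all (4.78), at 83.9 FPKM in dcr-1 RNAi, 2.08 FPKM in drsh-1 RNAi and 53.3 FPKM in mock. Here the drsh-1 library was the one that stood apart. The eIF4E translation factor ife-1 was at 203 FPKM in dcr-1 RNAi, 10.8 FPKM in drsh-1 RNAi and 11.81 FPKM in mock (4.11). ufd-1, a partner of the CDC-48 segregase in ubiquitin-dependent degradation, was at 85.6 FPKM in dcr-1 RNAi, 6.70 FPKM in drsh-1 RNAi and 18.4 FPKM in mock (3.49). F43E2.5, annotated as the methionine sulfoxide reductase msra-1, was at 139 FPKM in dcr-1 RNAi, 11.9 FPKM in drsh-1 RNAi and 8.64 FPKM in mock (3.44). For ife-1 and F43E2.5 the dcr-1 library alone was high, with drsh-1 RNAi and mock close together.

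Others of the 15 highest ratios were the C-type lectin gene clec-47 (138 FPKM in dcr-1 RNAi, 10.7 FPKM in drsh-1 RNAi, 17.9 FPKM in mock), the endoplasmic reticulum membrane complex gene H17B01.4, annotated as emc-1 (55.5, 5.63 and 3.58 FPKM in the same order), and C53A3.2, annotated as pgph-3 (23.9, 2.62 and 2.67 FPKM). F46F2.3, a gene without an assigned name, was at 483 FPKM in dcr-1 RNAi, 52.8 FPKM in drsh-1 RNAi and 5.25 FPKM in mock, so that both RNAi libraries were above mock and dcr-1 RNAi the higher. The unnamed gene F53F1.4 was at 183 FPKM in dcr-1 RNAi, 9.86 FPKM in drsh-1 RNAi and 4.42 FPKM in mock (4.08). C32H11.4 was at 204 FPKM in dcr-1 RNAi, 12.95 FPKM in drsh-1 RNAi and 8.75 FPKM in mock (3.88). The remaining ones were Y38E10A.13, annotated as nspe-1 (2.88), and 4 collagens described below.

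Among the 15 lowest ratios, genes of the gut, of lipid and alcohol metabolism and of yolk recurred. The yolk protein gene vit-6 was at 2.29 FPKM in dcr-1 RNAi, 71.2 FPKM in drsh-1 RNAi and 62.2 FPKM in mock (-4.45, the lowest ratio of all), and vit-2 at 147 FPKM, 1249.9 FPKM and 1165 FPKM in the same order (-3.08). acs-2, a mitochondrial acyl-CoA synthetase of fatty acid oxidation, was at 10.9 FPKM in dcr-1 RNAi, 128 FPKM in drsh-1 RNAi and 169 FPKM in mock (-3.43). F46B6.8, annotated as the lipase gene lipl-2, was at 5.69 FPKM in dcr-1 RNAi, 71.4 FPKM in drsh-1 RNAi and 199 FPKM in mock (-3.44). In all 4 genes the dcr-1 library was far below the other 2.

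Dehydrogenases and transport genes were in the same range. The aldehyde dehydrogenase gene alh-1 was at 3.73 FPKM in dcr-1 RNAi, 46.3 FPKM in drsh-1 RNAi and 67.997 FPKM in mock (-3.32). The alcohol dehydrogenase gene sodh-1 was at 26.99 FPKM in dcr-1 RNAi, 228 FPKM in drsh-1 RNAi and 661 FPKM in mock (-3.03), and the aquaglyceroporin gene aqp-1 at 7.26, 56.9 and 99.4 FPKM (-2.81). For sodh-1 and aqp-1, drsh-1 RNAi was itself below mock and dcr-1 RNAi lower still. F44G3.2, annotated as the arginine kinase gene argk-1, was the reverse on the drsh-1 side: 3.99 FPKM in dcr-1 RNAi, 47.8 FPKM in drsh-1 RNAi and 17.3 FPKM in mock (-3.29).

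Regulators of RNA were also among the lowest. ZK858.1, annotated as the cytoplasmic poly(A) polymerase gld-4 of the germ line, was at 8.64 FPKM in dcr-1 RNAi, 96.5 FPKM in drsh-1 RNAi and 89.7 FPKM in mock (-3.34). Y95B8A.8, annotated as the zinc finger RNA-binding gene zfr-1, was at 2.49 FPKM in dcr-1 RNAi, 31.1 FPKM in drsh-1 RNAi and 41.8 FPKM in mock (-3.20). The kinase gene pct-1 (-3.01), C33C12.3, annotated as the glucocerebrosidase gba-1 (-3.04), and the unnamed F58D5.5 (-3.74), Y48C3A.9 (-2.87) and K10C3.4 (-2.77) made up the rest. In drsh-1 RNAi these last 5 genes ranged from 30.4 FPKM in C33C12.3 to 90.3 FPKM in K10C3.4.

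Some of these single values can hold reads of a neighbour. Of the 30 genes at either end, 5 share exon sequence with an annotated gene of the same strand (ife-1, col-159, ZK858.1, F58D5.5 and K10C3.4), as do col-116, noah-2 and alg-1 below. A further 6 (cyn-4, F43E2.5, vit-2, aqp-1, C33C12.3 and Y95B8A.8) overlap a gene of the opposite strand alone, as do drsh-1 above and, below, sqt-3, rpt-4, mua-6, tbx-38, vit-3, vit-4, hsp-17, skr-5, xpo-1, lin-28, glp-1, spn-4, nlp-24 and Y49A3A.1, and the sources used here do not say whether strand was counted.

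Lists of genes with a shared role were then read against the whole. There were 44 lists with at least 5 compared genes. In 8 of them the median lay at least 0.3 log2 from the median of all compared genes: 4 toward dcr-1 RNAi (cuticle collagens, cytosolic ribosomal proteins, sarcomere genes and proteasome subunits) and 4 toward drsh-1 RNAi (early zygotic genes, yolk and its uptake, metallothionein with small heat shock and DAF-16 target genes, and intracellular pathogen response genes). The lists cover 2058 genes, or 22.8% of those compared.

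**Figure D1:**
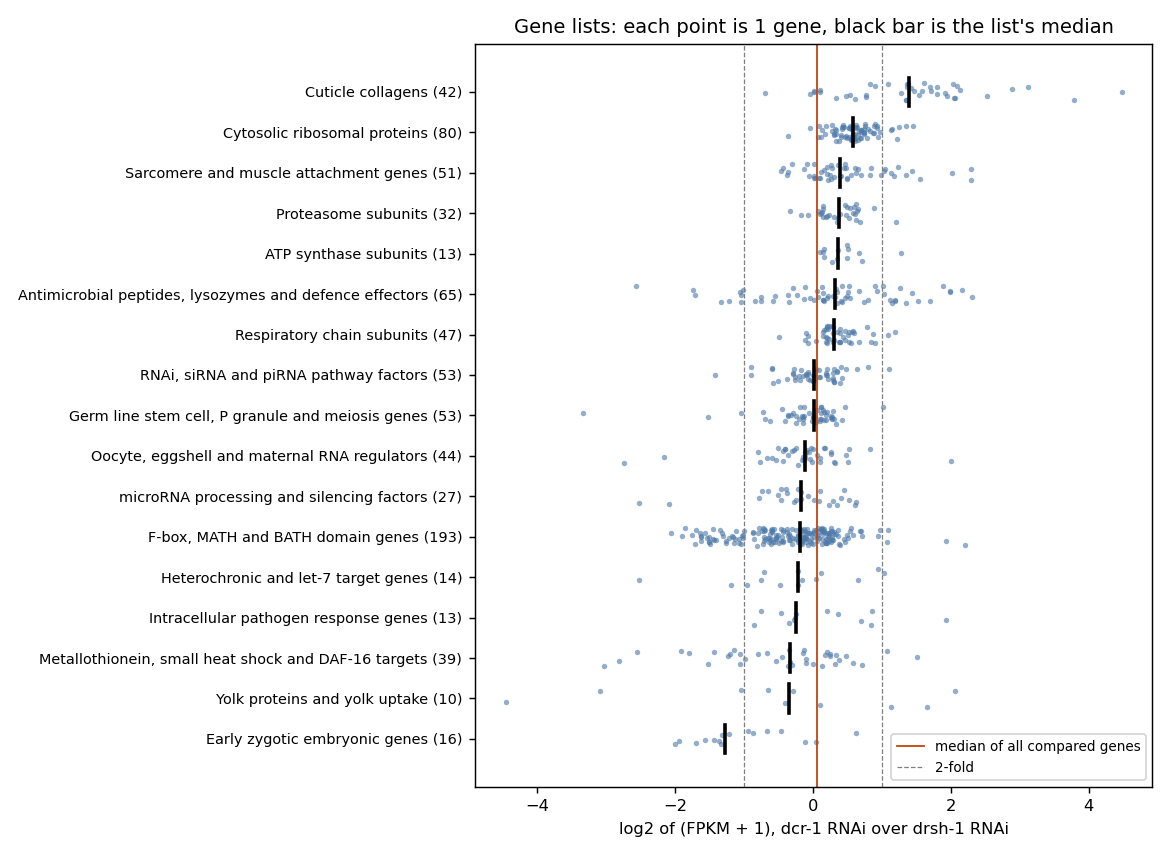
Ratio of dcr-1 over drsh-1 RNAi, as log2 of (FPKM + 1), for each gene of 17 lists, with the number of compared genes in brackets. Black bars are list medians, the red line is the median of all compared genes (0.06) and dashed lines mark 2-fold. The collagen median is at 1.40 and the early zygotic median at -1.27.

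Collagens of the cuticle showed the farthest list median. Cuticle collagens are secreted by the hypodermis and cross-linked into the layers of the exoskeleton at each molt and in the adult. The median over the 42 compared collagens was 1.40, and 28 of them (66.7%) were at least 2-fold higher in dcr-1 RNAi, against 4.29% of all genes. None was 2-fold lower, and 40 were above 0. Against mock, the list's median was 1.94 in dcr-1 RNAi against 0.50 in drsh-1 RNAi. Of 48 listed collagens in either table, a further 6 were in the dcr-1 table alone and none in the drsh-1 table alone. Of all 10168 genes in either table these numbers were 172 and 537.

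Collagens at a high level in mock differed most often. Divided at the median of the list in mock (25.6 FPKM) after the values were seen, 20 of the 21 collagens above it were at least 2-fold higher in dcr-1 RNAi (median ratio 1.72), against 8 of the 21 below it (median ratio 0.78). col-19, 1 of the 3 adult markers, was at 1455 FPKM in dcr-1 RNAi, 376 FPKM in drsh-1 RNAi and 339.8 FPKM in mock (1.95). col-93 was at 2043 FPKM in dcr-1 RNAi, 147 FPKM in drsh-1 RNAi and 18.04 FPKM in mock (3.79), and col-159 at 70.9, 7.24 and 2.54 FPKM (3.12). In both, dcr-1 RNAi was the highest of the 3 libraries and drsh-1 RNAi lay between it and mock. Y69H2.14, annotated as col-42, was at 335 FPKM in dcr-1 RNAi, 14.1 FPKM in drsh-1 RNAi and 12.99 FPKM in mock (4.48). Y69H2.14, col-93 and col-159 had the highest ratios of the list, yet all were below 25.6 FPKM in mock. The added 1 FPKM also lowers the ratios of low collagens.

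Some collagens did not follow this order of libraries. dpy-14 was at 60.8 FPKM in dcr-1 RNAi, 7.30 FPKM in drsh-1 RNAi and 60.4 FPKM in mock (2.90), so its ratio came from a low drsh-1 library. The genes sqt-3 (28.2, 5.85 and 31.5 FPKM in dcr-1 RNAi, drsh-1 RNAi and mock), col-95 and col-116 are given here after their values were seen. sqt-3 had the same order of libraries as dpy-14. col-95 was at 905 FPKM in dcr-1 RNAi, 894 FPKM in drsh-1 RNAi and 475 FPKM in mock, and it was the 1 collagen of the upper part in mock without a 2-fold difference. col-116 had the lowest ratio of the list (-0.69), at 2.24 FPKM in dcr-1 RNAi, 4.23 FPKM in drsh-1 RNAi and 5.79 FPKM in mock. Collagens are a family of similar genes, and the sources used here do not say how reads that fit several of them were treated.

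Enzymes and zona pellucida proteins that build the cuticle were mixed. Of 20 compared, 7 were at least 2-fold higher and 1 was lower, with a median of 0.27. Of all compared genes 4.29% were higher and 5.78% lower. The median of this list was not stable. Over the alternative settings it ranged from -0.01 to 0.83, and it changed sign among genes that average at least 20 FPKM. noah-2, a zona pellucida protein of the embryonic and larval apical matrix, was at 12.64 FPKM in dcr-1 RNAi, 2.56 FPKM in drsh-1 RNAi and 12.58 FPKM in mock (1.94), the same order of libraries as dpy-14. pdi-3, a protein disulfide isomerase of the endoplasmic reticulum, was the 1 lower gene: 113.9 FPKM in dcr-1 RNAi, 409.9 FPKM in drsh-1 RNAi and 234 FPKM in mock (-1.84). There drsh-1 RNAi was above mock and dcr-1 RNAi below it.

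**Figure D2:**
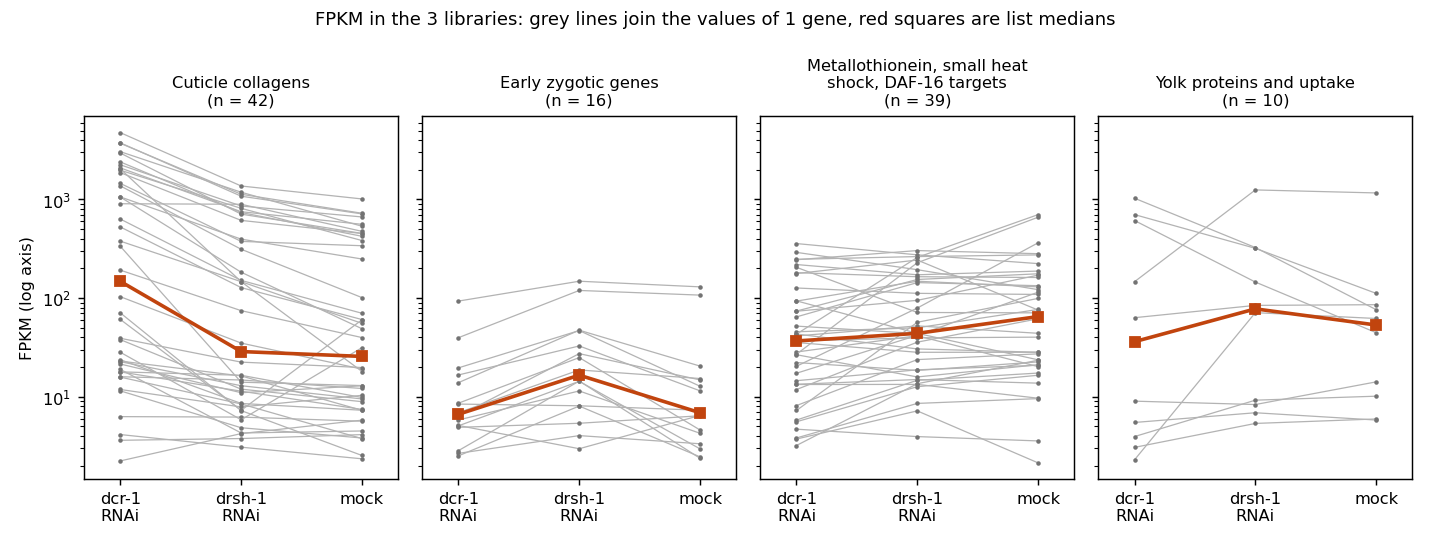
FPKM (log axis) of the compared genes of 4 lists in dcr-1 RNAi, drsh-1 RNAi and mock, 1 library each. Grey lines join the 3 values of 1 gene and red squares are list medians. The collagen median is 148 FPKM in dcr-1 RNAi, 28.7 FPKM in drsh-1 RNAi and 25.6 FPKM in mock, and the early zygotic median peaks in drsh-1 RNAi.

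Ribosomal protein genes were a little higher in dcr-1 RNAi across nearly the whole list. Of 80 cytosolic ribosomal protein genes 78 were above 0 (97.5%, against 55.5% of all compared genes), with a median of 0.59 and quartiles of 0.42 and 0.75. Only 6 (7.5%) were at least 2-fold higher and none was lower, against 4.29% and 5.78% of all compared genes. The median against mock was 0.62 in dcr-1 RNAi against 0.02 in drsh-1 RNAi. rpl-18 had the highest ratio, at 468 FPKM in dcr-1 RNAi, 171 FPKM in drsh-1 RNAi and 205 FPKM in mock (1.45). It was followed by rpl-4 at 423, 165 and 187 FPKM (1.35), rpl-34 at 318, 133 and 136 FPKM (1.25) and rps-5 at 533, 228 and 234 FPKM (1.23), in the order dcr-1 RNAi, drsh-1 RNAi and mock. In these 4 genes drsh-1 RNAi and mock were close together and dcr-1 RNAi above both.

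Proteasome and mitochondrial genes showed small differences of the same direction. Of 32 proteasome subunits, 29 were above 0 and 1 (3.12%, against 4.29% of all compared genes) was at least 2-fold higher, with a median of 0.38. That 1 was rpn-5, of the regulatory lid, at 199.6 FPKM in dcr-1 RNAi, 85.6 FPKM in drsh-1 RNAi and 87.3 FPKM in mock (1.21). The base ATPase rpt-4 was at 169.9 FPKM in dcr-1 RNAi, 90.9 FPKM in drsh-1 RNAi and 87.8 FPKM in mock (0.89). All 13 ATP synthase subunits were above 0 (median 0.36), and the catalytic subunit atp-2 was at 918 FPKM in dcr-1 RNAi, 376 FPKM in drsh-1 RNAi and 287 FPKM in mock (1.29). For 47 respiratory chain subunits the median was 0.31 with 42 above 0, and for 66 mitochondrial ribosomal proteins it was 0.25 with 58 above 0. The 12 compared genes of the mitochondrial genome had a median of 0.08 and none at 2-fold.

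Muscle genes leaned toward dcr-1 RNAi, thin filament genes of troponin among the farthest. The median of 51 sarcomere and attachment genes was 0.39, and 11 (21.6%) were at least 2-fold higher and none lower, against 4.29% and 5.78% of all compared genes. Troponin I genes were among them: tni-3 was at 41.6 FPKM in dcr-1 RNAi, 7.70 FPKM in drsh-1 RNAi and 12.7 FPKM in mock (2.29), and tni-1 at 30.7, 9.77 and 9.16 FPKM (1.56). The troponin T gene mup-2 was at 79.2 FPKM in dcr-1 RNAi, 18.8 FPKM in drsh-1 RNAi and 16.3 FPKM in mock (2.01). mua-6, an intermediate filament protein of the hypodermis that helps anchor muscle, was at 53.02, 10.03 and 5.37 FPKM (2.29). Of the myosin heavy chains of body wall muscle, unc-54 was at 183 FPKM in dcr-1 RNAi, 88.6 FPKM in drsh-1 RNAi and 83.5 FPKM in mock (1.04), and myo-3 at 22.2, 13.99 and 17.5 FPKM (0.63).

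Early zygotic genes, which are switched on in the first cell cycles of the embryo, were the list farthest toward drsh-1 RNAi. Of 16 compared, 9 (56.2%) were at least 2-fold lower in dcr-1 than in drsh-1 RNAi, against 5.78% of all genes, none was 2-fold higher, and 14 were below 0. The median was -1.27. Here drsh-1 RNAi was the library that stood apart, with a list median against mock of -0.11 in dcr-1 RNAi against 1.01 in drsh-1 RNAi. tbx-38, a T-box factor of the early embryo, was at 2.84 FPKM in dcr-1 RNAi, 14.4 FPKM in drsh-1 RNAi and 2.38 FPKM in mock (-2.01). pes-10, an early zygotic gene widely used as a marker, was at 5.07 FPKM in dcr-1 RNAi, 14.3 FPKM in drsh-1 RNAi and 2.96 FPKM in mock (-1.34). In both genes dcr-1 RNAi and mock were near each other and drsh-1 RNAi above them.

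Other members differed in where mock lay. Y46E12A.4, annotated as the T-box gene tbx-43, was at 6.39 FPKM in dcr-1 RNAi, 27.4 FPKM in drsh-1 RNAi and 14.8 FPKM in mock (-1.94), and sdz-28 at 13.9, 47.3 and 20.5 FPKM (-1.70). sdz-27 was at 39.7 FPKM in dcr-1 RNAi, 119.6 FPKM in drsh-1 RNAi and 107 FPKM in mock (-1.57), with dcr-1 RNAi as the low library. The early embryo markers, 4 of 8 of which were compared, summed to 19.04 FPKM in dcr-1 RNAi, 61.8 FPKM in drsh-1 RNAi and 12.403 FPKM in mock. All 4 were at least 2-fold lower in dcr-1 than in drsh-1 RNAi, and the endoderm markers end-1, end-3 and med-1 were in neither table. The part of embryos or of embryonic RNA in this difference was not tested.

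The F-box and related genes differed by branch of the family. F-box, MATH and BATH proteins are substrate adaptors of ubiquitin ligases, and C. elegans has unusually many of them. Of 193 compared, 37 (19.2%) were at least 2-fold lower in dcr-1 RNAi and 4 (2.07%) higher, with a median of -0.19, beside 5.78% lower and 4.29% higher of all compared genes. Divided by name after the values were seen, 22 of 50 fbxb genes were at least 2-fold lower and none higher (median -0.76), against 1 lower and 1 higher of 58 fbxa genes (median -0.03). Of 11 sdz genes, named for early zygotic expression dependent on skn-1, 7 were lower and 1 was higher (median -1.35). The 28 bath, 13 math and 19 fbxc genes had medians of -0.04, -0.04 and -0.10. Against mock, the fbxb median was -0.43 in dcr-1 RNAi against 0.38 in drsh-1 RNAi, so the libraries lay on either side of mock. Of 227 genes of the list in either table, a further 30 were in the drsh-1 table alone and 3 in the dcr-1 table alone. Of all 10168 genes in either table these numbers were 537 and 172. 3 genes stand both here and in the early zygotic list.

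fbxb-90 had the lowest ratio of the F-box list (-2.05), at 6.68 FPKM in dcr-1 RNAi, 30.9 FPKM in drsh-1 RNAi and 14.1 FPKM in mock. fbxa-72 had the highest (2.21), at 26.7 FPKM in dcr-1 RNAi, 4.96 FPKM in drsh-1 RNAi and 2.54 FPKM in mock. Their ligase partners followed partly. Among 62 Skp1-related, cullin and ubiquitin conjugation genes, 7 (11.3%) were at least 2-fold lower and 1 (1.61%) higher, with a median of -0.10. Of all compared genes 5.78% were lower and 4.29% higher. The cullin cul-3 was at 8.45 FPKM in dcr-1 RNAi, 49.9 FPKM in drsh-1 RNAi and 43.4 FPKM in mock (-2.43). Of the 17 Skp1-related skr genes 13 were below 0, and 3 of them at least 2-fold lower (median -0.41).

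**Figure D3:**
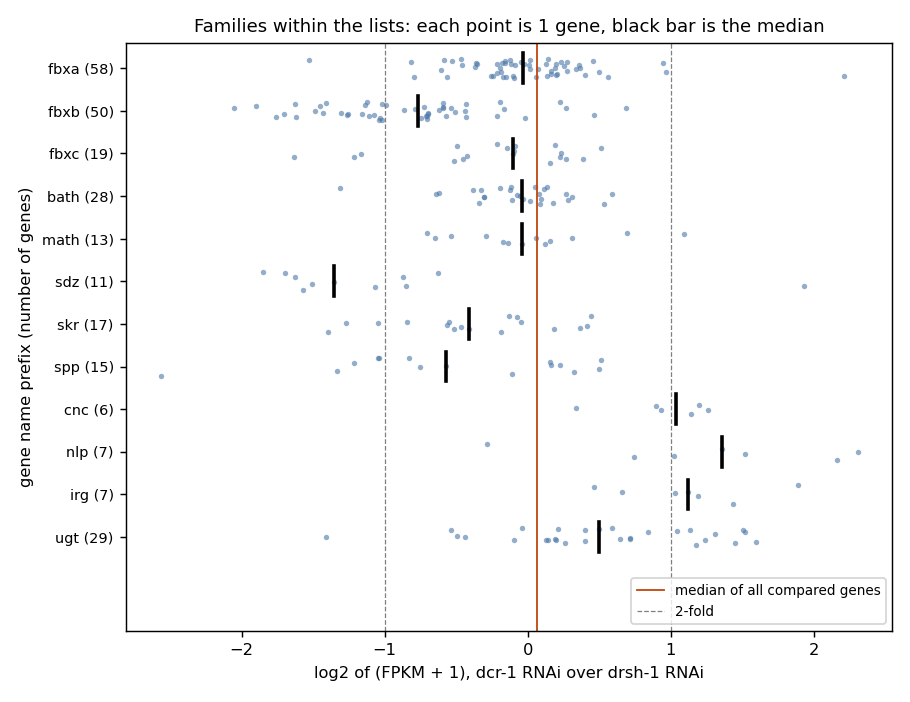
Ratio of dcr-1 over drsh-1 RNAi, as log2 of (FPKM + 1), by gene name prefix within the lists, a division made after the values were seen. Each point is 1 gene, black bars are medians, the red line is the median of all compared genes and dashed lines mark 2-fold. The fbxb median is at -0.76 and the fbxa median at -0.03.

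Yolk genes split. The median of 10 yolk and yolk uptake genes was -0.35, with 3 at least 2-fold higher and 3 lower, so the median describes neither side. vit-6 and vit-2 were far lower in dcr-1 RNAi, as given above. vit-1 was at 612 FPKM in dcr-1 RNAi, 145.6 FPKM in drsh-1 RNAi and 44.6 FPKM in mock (2.064), vit-4 at 1029.6, 326 and 76.4 FPKM (1.66) and vit-3 at 703, 319.9 and 111.7 FPKM (1.13), with mock the lowest of the 3 libraries in each. vit-5 was in neither table. vit-1 and vit-2, and likewise vit-3, vit-4 and vit-5, are near copies whose reads can be split between them. Summed, vit-1 and vit-2 were at 759 FPKM in dcr-1 RNAi, 1396 FPKM in drsh-1 RNAi and 1210 FPKM in mock, and vit-3 and vit-4 at 1732, 646 and 188 FPKM. Over all 5 compared vitellogenin genes the sums were 2494 FPKM in dcr-1 RNAi, 2112 FPKM in drsh-1 RNAi and 1459.9 FPKM in mock. The log2 ratio of the RNAi sums was 0.24, smaller in size than that of any single one of these genes.

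The yolk receptor of the oocyte, rme-2, was at 63.3 FPKM in dcr-1 RNAi, 84.4 FPKM in drsh-1 RNAi and 85.8 FPKM in mock (-0.41). pqm-1, a transcription factor of the gut, was at 3.95 FPKM in dcr-1 RNAi, 9.24 FPKM in drsh-1 RNAi and 10.1 FPKM in mock (-1.05). Of the 4 intestinal markers outside the yolk family, ges-1, cpr-1 and asp-1 were also lower in dcr-1 RNAi, while the intestinal protease list had a median of -0.01, and their part in the yolk values was not tested.

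Metallothionein, small heat shock and DAF-16 target genes leaned toward drsh-1 RNAi. DAF-16 is the forkhead factor of insulin signalling. Of 39 genes 12 (30.8%) were at least 2-fold lower in dcr-1 RNAi and 2 (5.13%) higher, with a median of -0.33. Of all compared genes 5.78% were lower and 4.29% higher, so the share of higher genes was near that of all genes. The metallothionein mtl-1 was at 43.2 FPKM in dcr-1 RNAi, 259 FPKM in drsh-1 RNAi and 703 FPKM in mock (-2.56), and hsp-12.3, which encodes a small heat shock protein, at 20.4, 79.4 and 364 FPKM (-1.91). With sodh-1 and aqp-1, these 4 shared 1 order: dcr-1 RNAi lowest, drsh-1 RNAi between, mock highest. On the other side, dod-24, a gene raised when DAF-16 is lost, was at 205 FPKM in dcr-1 RNAi, 71.6 FPKM in drsh-1 RNAi and 70.9 FPKM in mock (1.51), and hsp-17 at 93.8, 43.9 and 23.7 FPKM (1.08).

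Genes of the intracellular pathogen response, a set raised by microsporidia and virus, did not lie to 1 side. Of 13, none was 2-fold lower and 1 (7.69%) was higher, against 5.78% and 4.29% of all compared genes. Below 0 were 7, and the median (-0.25) and the mean (0.13) had opposite signs. skr-5 was at 3.45 FPKM in dcr-1 RNAi, 6.99 FPKM in drsh-1 RNAi and 5.63 FPKM in mock (-0.85). The 1 higher gene, sdz-6, was at 39.5 FPKM in dcr-1 RNAi, 9.60 FPKM in drsh-1 RNAi and 4.16 FPKM in mock (1.93).

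The small RNA machinery itself differed little. Of 27 microRNA processing and silencing factors, none was at least 2-fold higher and 2 were lower (7.41%), with a median of -0.17. Of all compared genes 4.29% were higher and 5.78% lower, so the share of lower factors was near that of all genes. nhl-2, a TRIM-NHL cofactor of the microRNA silencing complex, was at 5.42 FPKM in dcr-1 RNAi, 35.8 FPKM in drsh-1 RNAi and 36.7 FPKM in mock (-2.52). The nuclear export factor xpo-1 was at 38.1 FPKM in dcr-1 RNAi, 166 FPKM in drsh-1 RNAi and 155 FPKM in mock (-2.09). In both, drsh-1 RNAi and mock were close. The microRNA Argonautes lay on opposite sides: alg-1 was at 11.9 FPKM in dcr-1 RNAi, 7.90 FPKM in drsh-1 RNAi and 9.96 FPKM in mock (0.53), and alg-2 at 19.4, 30.9 and 24.4 FPKM (-0.65).

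Of 53 factors of RNAi, siRNAs and piRNAs, 1 was 2-fold higher and 1 lower (1.89% each, against 4.29% and 5.78% of all compared genes), with a median of 0.02. These were rsd-2, which acts in the response to double-stranded RNA (38.5 FPKM in dcr-1 RNAi, 17.5 FPKM in drsh-1 RNAi, 14.4 FPKM in mock), and the RNA-editing gene adr-1 (10.8, 30.8 and 37.7 FPKM in the same order). The Argonaute rde-1, which binds primary siRNAs cut by Dicer, was at 43.1 FPKM in dcr-1 RNAi, 34.8 FPKM in drsh-1 RNAi and 34.9 FPKM in mock (0.30), and rde-4 was in neither table. The noncoding RNA rncs-1, which can compete for Dicer in C. elegans, was at 19.1 FPKM in dcr-1 RNAi, 18.8 FPKM in drsh-1 RNAi and 30.8 FPKM in mock (0.02), low in both RNAi libraries and close between them.

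Genes of developmental timing, several of them microRNA targets, could be read in part. Of 14 compared, 1 (7.14%) was 2-fold higher and 2 (14.3%) lower (median -0.21), against 4.29% and 5.78% of all compared genes. lin-28 was at 44.2 FPKM in dcr-1 RNAi, 51.4 FPKM in drsh-1 RNAi and 64.5 FPKM in mock (-0.21). The Ras gene let-60 was at 33.8 FPKM in dcr-1 RNAi, 66.6 FPKM in drsh-1 RNAi and 84.1 FPKM in mock (-0.96), and let-526 at 26.7, 62.1 and 70.8 FPKM (-1.19). lin-41 is not compared, since it was at 12.7 FPKM in dcr-1 RNAi beside a mock value of 35.96 FPKM and at 58.2 FPKM in drsh-1 RNAi beside a mock value of 64.4 FPKM, lin-14 was in the drsh-1 table alone (2.057 FPKM in drsh-1 RNAi, 4.502 FPKM in mock), and neither table holds hbl-1 or lin-29.

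The germ line lists were close to the centre. The median was 0.01 over 53 stem cell, P granule and meiosis genes and -0.11 over 44 oocyte genes. glp-1, the Notch receptor of germ line stem cells, was at 48.4 FPKM in dcr-1 RNAi, 50.5 FPKM in drsh-1 RNAi and 50.7 FPKM in mock (-0.06), and fem-1 at 40.1, 38.3 and 38.8 FPKM (0.06). Single genes departed. spn-4, an RNA-binding protein loaded into oocytes for the early embryo, was at 83.4 FPKM in dcr-1 RNAi, 561 FPKM in drsh-1 RNAi and 393 FPKM in mock (-2.74). The B-type cyclin gene cyb-1 was at 2.38 FPKM in dcr-1 RNAi, 14.1 FPKM in drsh-1 RNAi and 13.1 FPKM in mock (-2.16), and the P granule gene pgl-1 at 7.70, 23.9 and 18.4 FPKM (-1.52).

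Defence genes differed by family. Of 65 antimicrobial peptide, lysozyme and effector genes, 16 (24.6%) were at least 2-fold higher in dcr-1 RNAi and 9 (13.8%) lower, with a median of 0.33, against 4.29% and 5.78% of all compared genes. Divided by name after the values were seen, the 6 cnc, 7 nlp and 7 irg genes had medians of 1.04, 1.36 and 1.12, with 3, 5 and 5 genes at least 2-fold higher and none lower. The 11 fipr genes had a median of 0.35 with 2 higher and 1 lower, and the 5 lysozyme genes (lys) a median of -0.23 with none at 2-fold. The cnc genes and these nlp genes encode peptides made largely in the epidermis. The 15 spp genes, which encode saposin-like peptides, several of them made in the gut, had a median of -0.57, with none higher and 5 lower. nlp-24 was at 240.5 FPKM in dcr-1 RNAi, 47.8 FPKM in drsh-1 RNAi and 34.1 FPKM in mock (2.31), and spp-2 at 12.9, 81.2 and 120.4 FPKM (-2.56). The collagens of the hypodermis were higher in the same library, and 5 of the 6 gut markers lower with the intestinal protease list at a median of -0.01, and their part in these values was not tested.

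Medians of the metabolic lists lay near the centre, with strong single genes on both sides. Of 97 lipid genes, 9 (9.28%) were higher and 10 (10.3%) lower at 2-fold (median 0.06). Both shares were larger than the 4.29% higher and 5.78% lower of all compared genes. Of 20 methionine cycle and phosphocholine genes 5 were higher and 2 lower, also larger shares than of all compared genes. Among them sams-1, which makes S-adenosylmethionine, was at 81.7 FPKM in dcr-1 RNAi, 17.6 FPKM in drsh-1 RNAi and 11.7 FPKM in mock (2.15). Y49A3A.1, annotated as cept-2, was at 17.9, 75.8 and 68.9 FPKM in the same order (-2.02). Of 15 propionate breakdown and vitamin B12 genes 3 were higher and 1 lower (median 0.24), again larger shares than of all compared genes. acdh-1, the acyl-CoA dehydrogenase that reports on propionate and vitamin B12, was at 703 FPKM in dcr-1 RNAi, 319 FPKM in drsh-1 RNAi and 47.2 FPKM in mock (1.14). For acdh-1 both RNAi libraries were far above mock. mmcm-1, which breaks down methylmalonyl-CoA with vitamin B12, was at 4.86 FPKM in dcr-1 RNAi, 20.02 FPKM in drsh-1 RNAi and 14.4 FPKM in mock (-1.84).

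Properties of the genes that the choice of genes did not use were compared last. The ratio was lower for genes with a longer annotated 3′ UTR, the part of an mRNA where most known microRNA sites lie. The gene models came from Ensembl, matched to 8723 of the 9043 genes (96.5%), and 8465 have a 3′ UTR there, of which the longest was taken. In 4 classes of rising length and equal size the median ratio was 0.18, 0.20, 0.05 and -0.21. In the longest class, above 290 bases, 1.51% of genes were at least 2-fold higher and 10.3% lower, against 6.66% and 4.63% in the shortest, up to 91 bases. Spearman's rho across genes was -0.28 (n = 8465). Genes are not independent replicates, all values come from the same pair of libraries, and rho is a description.

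**Figure D4:**
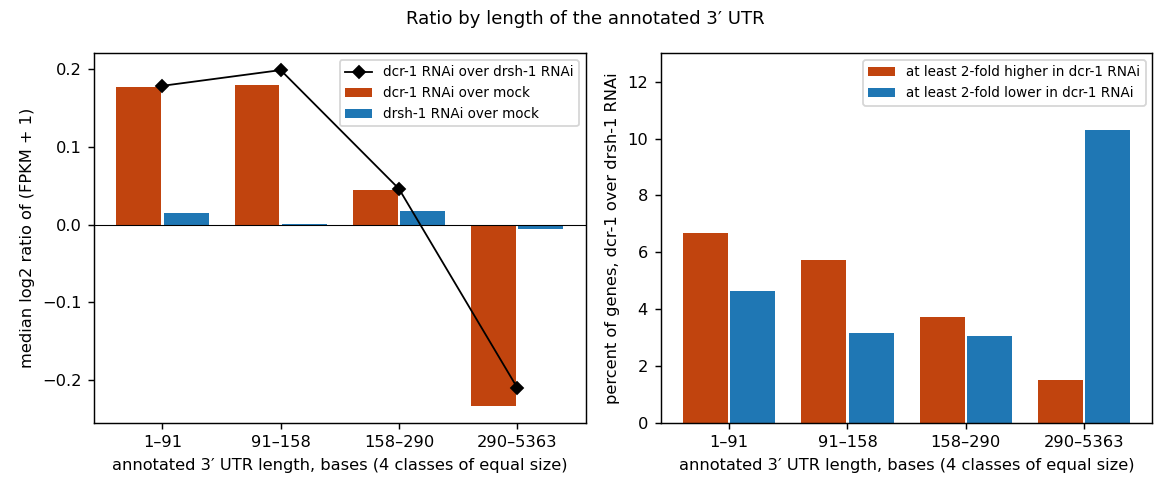
Ratios in 4 equal classes of annotated 3′ UTR length in bases. The left panel gives the median log2 ratio of (FPKM + 1) for dcr-1 RNAi over mock and drsh-1 RNAi over mock (bars) and dcr-1 over drsh-1 RNAi (diamonds), and the right panel the percent of genes at least 2-fold higher or lower in dcr-1 than in drsh-1 RNAi. The longest class has a median of -0.21 and 10.3% of genes at least 2-fold lower.

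Against mock, the class medians were 0.18, 0.18, 0.04 and -0.23 in dcr-1 RNAi, and between -0.01 and 0.02 in drsh-1 RNAi. Split into 4 classes by level, rho between ratio and 3′ UTR length was -0.15 in the lowest and -0.27, -0.39 and -0.37 in the next 3. It was -0.28 without the genes of the 8 lists farthest from the centre and -0.25 over genes with 1 annotated transcript. Collagens and ribosomal protein genes have short annotated 3′ UTRs, with list medians of 61 and 56.5 bases against 158 over all compared genes. The fbxb genes, which lie to the other side, have a median of 59.5 bases. Coding length (rho -0.03) and the number of exons (rho -0.03) showed almost no relation. For transcript length, which includes the 3′ UTR, rho was -0.10, and for the mean level in both RNAi libraries it was 0.12. Chromosome medians were between 0.07 and 0.08 on chromosomes I to V and -0.01 on X.

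Genes in 1 table alone give no ratio. The drsh-1 table alone held 537 genes with a median of 3.45 FPKM in drsh-1 RNAi, and the dcr-1 table alone held 172 with a median of 3.25 FPKM in dcr-1 RNAi. In each, 39 and 9 genes reached 10 FPKM in the RNAi library. The values of such genes in the other RNAi library were not analysed here.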

How the data were processed

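PolyA RNA was sequenced from 3 libraries, 1 each of dcr-1 RNAi, drsh-1 RNAi and mock. TRIzol was used for RNA and a TruSeq kit (HiSeq2000) for the libraries, per the labels' protocols. Tools named in the submitters' processing notes, with no role, are TopHat2 2.06, Cufflinks, Cuffdiff 2.1.1, SAMtools and CASAVA 1.8.2. Genome build, annotation and scaling between libraries were not given in the sources used. Coordinates are therefore not printed. The authors deposited 2 tables of FPKM values with no header, with mock, the RNAi library and a ratio per gene. The table's name gave the RNAi library, and the shared column was read as mock. The deposited log2 column matches the same formula as used here, with a pseudocount of 1 FPKM and mock below the line, within 5.0e-12.

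From the deposited FPKM values the direct ratio was computed with Python 3.11.15, pandas 2.3.3 and numpy 2.4.6, with a pseudocount of 1 FPKM. The arithmetic of the 2-fold count was checked on simulated ratios, which bears on no error between libraries. With 1 library a group, no p-value, SD or test was possible, and depth is unknown. The lists and members were chosen with earlier results of these data known. Current names, transcripts and 3′ UTR lengths came from Ensembl release 115 (WBcel235), which may not be the authors' annotation, and the 3′ UTR taken for a gene may not be the one used in these animals. Names in the lists were matched to the listed and the current name. Named genes are the targeted genes and pash-1, the 15 highest and 15 lowest ratios with a mean of at least 5 FPKM, for the 8 lists at least 0.3 log2 from the median of all genes the 4 farthest members on that side and any 2-fold member on the other, for other lists the 2 farthest, and a fixed set of pathway genes. Genes outside this rule are said to be chosen after their values were seen. Alternatives were pseudocounts of 0.1 and 5 FPKM, minimum means of 5 and 20 FPKM, centring, a common upper quartile, added genes with unequal mock values, genes with 1 transcript, and thresholds of 1.5-fold and 4-fold. The list of mitochondrially encoded genes matched no compared gene by name, and those genes were taken by chromosome.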

Additional observations from a re-analysis of the deposited data

How the results depend on the processing

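The count of genes at least 2-fold higher and lower in dcr-1 RNAi, 388 and 523 as reported, was 250 and 316 with a pseudocount of 5 FPKM, 231 and 243 among the 5339 genes that average at least 20 FPKM, 1216 and 1152 at 1.5-fold, and 53 and 73 at 4-fold. Among the 5508 genes with 1 annotated transcript 298 were lower. Fewer genes or another threshold change these counts by construction, and a larger pseudocount shrinks the ratios of low genes. Centring gave 330 higher and 583 lower, and the share of higher genes among the 2-fold ones was 36.1% after it, against 42.6%. Over the 44 lists and 9 alternatives, 387 of 396 medians moved by under 0.3 log2. The collagen median was 1.71 over the 26 genes that average at least 20 FPKM, and the early zygotic median -0.87 with a pseudocount of 5 FPKM. At a mean of at least 20 FPKM the median of the yolk list was 0.36 (6 genes) and that of the intracellular pathogen response list 0.37 (5 genes), both reversed, and the cause beyond the smaller number of genes was not tested. Those of the sperm list and of the cuticle enzymes also changed sign there, to -0.02 and -0.01. The propionate and vitamin B12 median was -0.15 over genes with 1 transcript. Several lists with medians near 0, such as the lipid, germ line stem cell, RNAi factor and intestinal protease lists, changed sign in some alternatives too. Of 135 named genes, 2 changed sign, both with ratios near 0: rncs-1 was -0.04 after centring and with a common upper quartile, against 0.02, and fem-1 was -0.0014 with a common upper quartile, against 0.06. None of the 2-fold named genes changed sign, but none could. A pseudocount cannot change the sign of a single gene, and centring or a common upper quartile shifts a ratio by at most 0.07. The other alternatives leave the ratio of a compared gene as it is. Of 1132 values 72 moved by at least 0.3 log2, all under another pseudocount, so the unmoved values are no sign of stability. No paired analysis was possible because each group has 1 library. The unknown depth limits genes of few FPKM most.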

Other observations

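Families that the report does not describe were read by name prefix after the values were seen, with no test. Of 77 prefixes with at least 10 compared genes, the UDP-glucuronosyltransferase genes (ugt), which conjugate small molecules, had the farthest median toward dcr-1 RNAi after the collagens and ribosomal proteins. Of 29 ugt genes 9 were at least 2-fold higher and 1 lower (median 0.50), where 4.29% of all compared genes were higher and 5.78% lower. Their medians against mock were 0.81 in dcr-1 RNAi against 0.26 in drsh-1 RNAi. The glutathione transferase gene gst-26 was at 23.8 FPKM in dcr-1 RNAi, 4.49 FPKM in drsh-1 RNAi and 13.9 FPKM in mock (2.18). The 31 cyp genes had a median of 0.10. The vacuolar ATPase genes, which acidify organelles, had 3 of 20 at least 2-fold higher and none lower (median 0.28), with vha-5 at 29.8 FPKM in dcr-1 RNAi, 11.9 FPKM in drsh-1 RNAi and 6.74 FPKM in mock (1.26).

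Several regulators had drsh-1 RNAi as the library apart. The homeobox gene ceh-5 was at 18.97 FPKM in dcr-1 RNAi, 4.66 FPKM in drsh-1 RNAi and 45.04 FPKM in mock (1.82), and the bZIP gene ces-2 at 22.5, 3.30 and 30.4 FPKM (2.45). The linker histone gene hil-7 was at 28.2 FPKM in dcr-1 RNAi, 8.95 FPKM in drsh-1 RNAi and 30.2 FPKM in mock (1.56). Among genes in the drsh-1 table alone, tsn-1, a Tudor staphylococcal nuclease, had the highest value, at 82.7 FPKM in drsh-1 RNAi against 77.4 FPKM in mock. Among genes in the dcr-1 table alone the highest was Y71H2AR.1, annotated as txdc-17, at 114.5 FPKM in dcr-1 RNAi against 76.5 FPKM in mock. Both were named after their values were seen. Exons of ceh-5 and vha-5 overlap a gene of the opposite strand, so their values can hold its reads.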
